A study of Mus musculus with 40 samples.

Results

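Integrins and cadherins are the adhesion receptors described here, as the RNA levels of their genes in mouse blood progenitors of 9 genotype and age groups. The members are the protein-coding genes with a symbol of the form Itga, Itgb 1 to 8 or Cdh with a number, and at least 40 counts summed over the libraries of either age. Of 49 such symbols, 33 reached that minimum, among 41388 gene IDs in all. They are 16 of 18 integrin alpha genes, 7 of 8 integrin beta genes and 10 of 23 cadherins. The member nearest to the minimum was Cdh24, with 41 counts at P0, and the nearest genes left out were Itga10 with 36 and Cdh10 with 35. The rule used no difference between groups.

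Integrins are heterodimers of an alpha and a beta subunit that span the membrane, bind matrix proteins or receptors on other cells, and connect them to the actin cytoskeleton through talin and kindlin. In blood cells the beta-2 subunit (Itgb2) pairs with the leukocyte alpha subunits L, M, X and D, alpha-4 pairs with beta-1 or beta-7 to hold progenitors to VCAM-1 and fibronectin in the marrow, and alpha-IIb with beta-3 is the fibrinogen receptor of platelets and megakaryocytes. Cadherins are calcium-dependent receptors that bind cadherins on neighbouring cells, and classical cadherins are linked to actin through catenins.

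The study sequenced RNA from cells labelled as hematopoietic progenitors or multipotent progenitors of mice carrying mutations linked to acute myeloid leukemia. At P14 (14 days of age) the groups were wild type, 3 single mutants and 2 double mutants. The single mutants carried Flt3-ITD (an activating duplication in the receptor kinase Flt3), NHD13 (the NUP98-HOXD13 fusion) or 1 mutant copy of Runx1 (labelled Runx1-HET), and the double mutants joined Flt3-ITD to Runx1-heterozygous or to NHD13. At P0 (the day of birth) 3 of these genotypes were measured: Flt3-ITD with NHD13, Flt3-ITD, and wild type. All 9 groups held 4 libraries, numbered as in the labels. The labels give no strain, sex, promoter of the NHD13 transgene or Runx1 allele, nor do they state whether each library is from its own animal. The p-values therefore reflect only the variation among these samples, and that variation may be technical.

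Libraries held 13.7 to 27.3 M counts at P14 (median 19.9) and 17.3 to 39.3 M at P0 (median 28.8). The 10 progenitor markers, among them Kit, Flt3 and Cd34, summed to 4270 to 7520 CPM (counts scaled to the library size) over the P14 libraries and none was at 0 in any group. Runx1 read 39.4, 52.1, 49.7 and 57.5 CPM in P14 wild type and 46.6, 49.6, 54.5 and 58.1 in the Runx1-heterozygous group (log2 fold change 0.07 ± 0.13, adjusted p = 0.916), and 84.7, 75.9, 77.1 and 81.9 CPM in the double mutant with Flt3-ITD (0.69 ± 0.13, adjusted p = 0.000196). Its level was thus not lower in either group, the labels do not describe the allele, and the libraries are named as labelled. Libraries with more Y-linked than Xist counts numbered 1 of 4 in P14 wild type, 4 in Flt3-ITD, 3 in NHD13, 1 in Runx1-heterozygous, 2 in its double mutant with Flt3-ITD and 3 in that of NHD13. At P0 they were 2 of 4 in wild type, 4 in Flt3-ITD and 2 in the double mutant. Where a term for this changed a call, its value is given beside that call. In bulk RNA, fewer cells of one type and less RNA per cell cannot be told apart.

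On a scale that corrects for gene length (RPKM, CPM per kilobase of exon), a few subunits held most of the signal in wild-type cells. At P14 the highest beta subunits were Itgb2 at 71.1 ± 8.25 RPKM (SD, n = 4), Itgb1 at 43.2 ± 2.36 and Itgb7, the second partner of alpha-4, at 12.2. Among alpha subunits Itgal (alpha-L, with beta-2 the receptor LFA-1) stood at 30.8 ± 4.69 RPKM, Itgam (alpha-M of Mac-1) at 11 and Itga4 at 8.90 ± 0.101. Itga5, the fibronectin receptor subunit, followed at 5.11 RPKM, ahead of the laminin receptor subunit Itga6 at 3.16 and of Itga2b (alpha-IIb) at 3.11, and these last 2 levels differed by less than their spread. Cdh17, called liver-intestine cadherin and also a protein of B lineage cells, was the highest cadherin at 1.53 ± 0.819 RPKM, and Cdh15 (M-cadherin of muscle) followed at 0.691. Cdh1 (E-cadherin), Cdh2 (N-cadherin) and Cdh5 (VE-cadherin of endothelium) each lay under 0.06 RPKM at P14. At P0 the wild-type order at the top was alike, with Itgb2 at 63.2, Itgb1 at 54.6 and Itgal at 22 RPKM. The ages come from separate tables and their levels were not tested against each other.

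**Figure D1:**
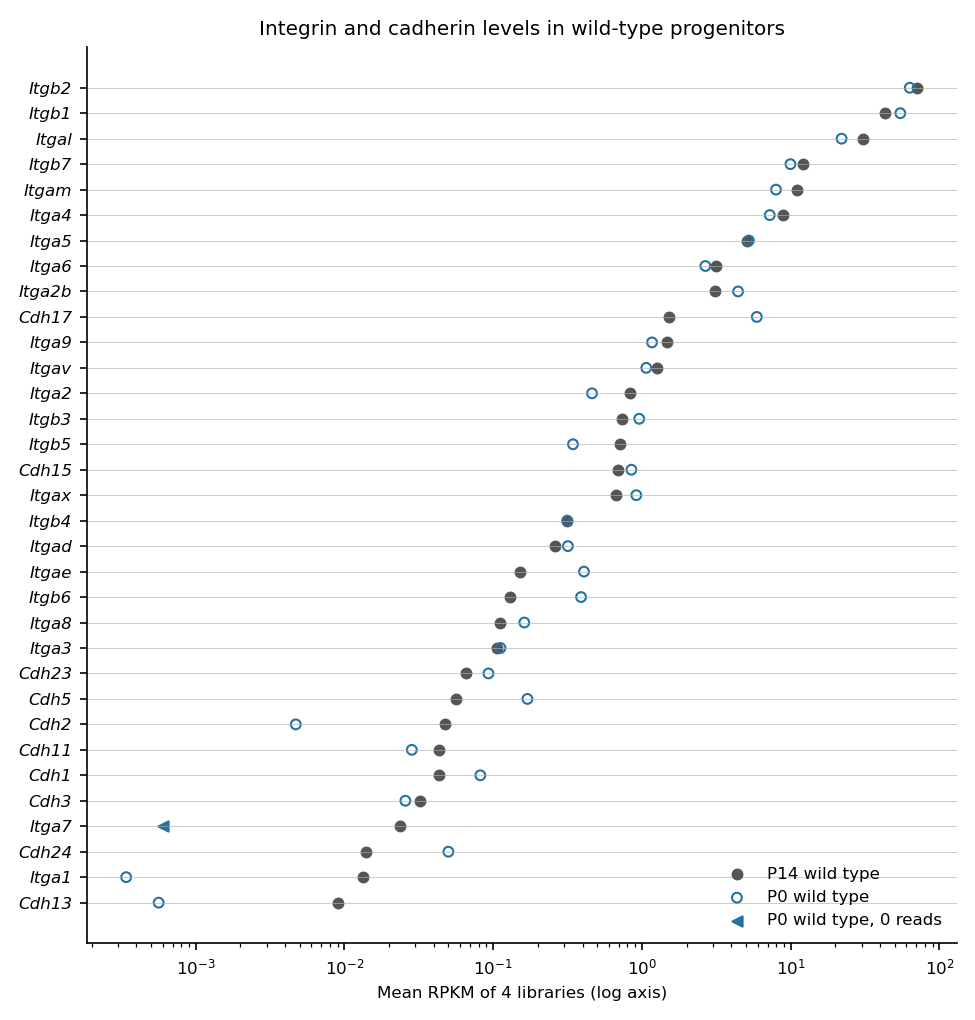
Mean RPKM of the 33 members in 4 P14 wild-type libraries (filled) and 4 P0 wild-type libraries (open, triangle for a gene with 0 reads), on a log axis. Itgb2, Itgb1 and Itgal lie at the top and most cadherins lie under 0.1 RPKM, with Cdh17 and Cdh15 above the rest.

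RefSeq windows of 250 bases before the start site (GRCm38.p6) were at hand for 18 of the 33 members. The 4 shown belong to genes that differed from wild type in some groups below. Itga2b (chr11:102469884-102470133, minus strand) was called higher in the groups with NHD13, and Itga4 (chr2:79255176-79255425, plus strand) in 4 P14 mutant groups. Itgam (chr7:128062390-128062639, plus strand) was called lower in the 3 P14 groups with Flt3-ITD, although some of these calls were lost in other fits. Itgb5 (chr16:33829415-33829664, plus strand) was higher in the 2 of these groups without NHD13. Capitals mark matches, on either strand, to 1 of 4 motifs. The letters searched were TGTGGT for RUNX factors, AGATAA for GATA factors, GAGGAA for ETS factors and TTCNNNGAA for STAT factors.
Itga2b: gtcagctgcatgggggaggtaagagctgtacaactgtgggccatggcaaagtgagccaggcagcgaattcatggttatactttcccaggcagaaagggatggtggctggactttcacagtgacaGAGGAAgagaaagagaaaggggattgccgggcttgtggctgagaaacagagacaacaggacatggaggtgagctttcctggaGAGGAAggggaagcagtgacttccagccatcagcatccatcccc
Itga4: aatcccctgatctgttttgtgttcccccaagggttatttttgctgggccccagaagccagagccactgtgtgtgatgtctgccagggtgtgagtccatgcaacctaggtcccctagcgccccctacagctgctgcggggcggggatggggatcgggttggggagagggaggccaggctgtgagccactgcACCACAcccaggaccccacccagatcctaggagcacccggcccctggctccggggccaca
Itgam: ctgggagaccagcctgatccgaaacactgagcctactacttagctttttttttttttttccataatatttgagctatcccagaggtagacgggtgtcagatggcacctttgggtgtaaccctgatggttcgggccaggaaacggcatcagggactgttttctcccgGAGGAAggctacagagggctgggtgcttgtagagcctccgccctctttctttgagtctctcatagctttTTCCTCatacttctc
Itgb5: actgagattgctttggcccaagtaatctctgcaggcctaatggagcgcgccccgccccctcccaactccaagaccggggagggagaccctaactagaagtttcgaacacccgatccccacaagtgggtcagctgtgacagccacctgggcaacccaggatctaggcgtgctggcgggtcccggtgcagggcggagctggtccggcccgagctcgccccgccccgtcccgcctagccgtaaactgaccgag
Itga2b held GAGGAA 126 and 44 bases before the start on the gene's own strand, counted from the RefSeq start. For Itga2b that start lies downstream of the GENCODE start given below, so most of its window lies inside the GENCODE gene, whereas the other 3 windows end just before the GENCODE start. Itga4 held the RUNX letters 60 bases before the start on the opposite strand, Itgam held GAGGAA 84 bases before it and, on the opposite strand, 15 bases before it, and Itgb5 held none of the 4. Over the 18 members with a window, 6 held the ETS letters, 2 those of RUNX, 1 those of GATA and 0 those of STAT. Of all 32851 windows, 23.3% held the ETS letters, 14.0% RUNX, 9.99% GATA and 7.02% STAT. A match describes the letters in this window and is no evidence of binding.

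A gene was called where edgeR's quasi-likelihood test gave an adjusted p (Benjamini-Hochberg, taken over every gene tested) below 0.05. Where groups are said to lie apart in every library, the share of all genes that separate likewise was not computed. Such separation is a description of the values and no call. Of the 33 members, 28 passed the filter on low counts at P14 and 25 at P0. Flt3-ITD differed from wild type at P14 in 10 of 28 (2 higher, 8 lower), beside 8.6% of all 14394 genes (3.84% higher, 4.76% lower). Their median log2 fold change was -0.2 against -0.01 over all genes, and the median size was 0.48 against 0.18. NHD13 differed in 8 (6 higher, 2 lower), beside 15.9% of all genes (7.12% higher, 8.75% lower). Flt3-ITD with NHD13 differed in 7 (3 higher, 4 lower), a share of 25% beside 22.4% of all genes (10.2% higher, 12.2% lower). Flt3-ITD with Runx1-heterozygous differed in 15 (7 higher, 8 lower), a share of 53.6% beside 22.7% (10.7% higher, 12% lower). In Runx1-heterozygous alone edgeR called 0 members, beside 0.778% of all genes (0.257% higher, 0.521% lower), with 2 members at an unadjusted p under 0.05 and 1 called by DESeq2. At P0, Flt3-ITD called 1 member, beside 0.0139% of all genes, which is 2 genes (0.00696% higher, 0.00696% lower), and Flt3-ITD with NHD13 called 4 (2 higher, 2 lower), beside 2.08% of all genes (1.11% higher, 0.975% lower). Over the 7 comparisons with wild type, 18 of the 28 members tested were called at least once (64.3%), beside 37.6% of all 15044 genes tested in any of them, and 10 never were, among them Itgb1, Itgb4, Itgb7, Itga3 and Itga5.

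**Figure D2:**
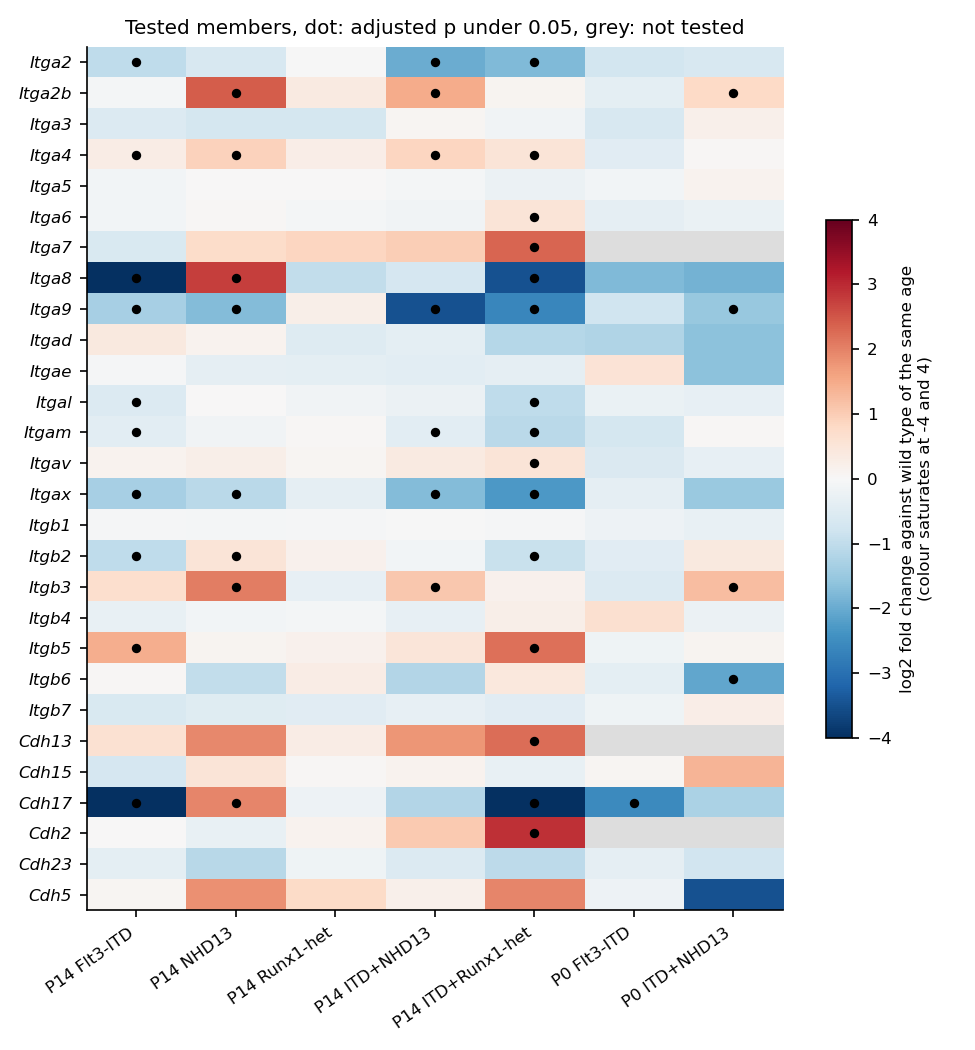
Log2 fold change of each tested member (rows) against wild type of the same age in 7 groups (columns), red for higher and blue for lower, with a dot where the adjusted p was under 0.05. Flt3-ITD with Runx1-heterozygous has 15 dots, Runx1-heterozygous alone has 0, and the 2 P0 columns have 1 and 4.

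Beta-2 integrin RNA fell in Flt3-ITD cells and rose in NHD13 cells. Itgb2 (chr10:77530252-77565708) read 228, 229, 232 and 179 CPM in P14 wild type, 103, 107, 117 and 104 in Flt3-ITD, and 262, 325, 336 and 319 in NHD13. Every Flt3-ITD library lay below every wild-type library and every NHD13 library above them. The log2 fold change was -1.01 ± 0.10 (SE) in Flt3-ITD (adjusted p = 6.31e-08) and 0.52 ± 0.10 in NHD13 (adjusted p = 0.000371). Flt3-ITD with Runx1-heterozygous was as low as Flt3-ITD, at 120, 112, 124 and 115 CPM (-0.88 ± 0.10, adjusted p = 1.56e-07). Flt3-ITD with NHD13 read 206, 173, 191 and 235 CPM, overlapping wild type (-0.11, adjusted p = 0.494). Runx1-heterozygous alone read 278, 253, 244 and 202 CPM (0.17, adjusted p = 0.669).

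Of the 4 leukocyte alpha partners of Itgb2, Itgal, Itgam and Itgax were lower in both of these Flt3-ITD groups, and none of the 4 rose in NHD13. Itgal (chr7:127296260-127335138) read 168, 241, 208 and 192 CPM in wild type, 132, 167, 129 and 129 in Flt3-ITD and 114, 90.4, 99.5 and 91.5 in Flt3-ITD with Runx1-heterozygous. Neither mutant group overlapped wild type, and the log2 fold changes were -0.54 ± 0.11 (adjusted p = 0.00221) and -1.03 ± 0.12 (adjusted p = 1.02e-07). The difference between these mutant groups was -0.49 ± 0.12 (adjusted p = 0.00715), and without Flt3-ITD library 2 it was -0.39 (adjusted p = 0.056). In NHD13, Itgal read 179, 203, 226 and 203 CPM, overlapping wild type (0.00, adjusted p = 0.995), while in Flt3-ITD with NHD13 it read 150, 164, 187 and 188 (-0.23, adjusted p = 0.153).

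Itgam (chr7:128062640-128118491), the alpha subunit of the myeloid receptor Mac-1, was lowest in Flt3-ITD with Runx1-heterozygous. It read 55.0, 60.3, 58.8 and 46.1 CPM in wild type, 42.2, 36.9, 39.6 and 46.5 in Flt3-ITD, and 24.1, 27.8, 31.5 and 20.2 in Flt3-ITD with Runx1-heterozygous. The last group lay wholly below wild type (-1.09 ± 0.13, adjusted p = 4.19e-07) and below Flt3-ITD (-0.67 ± 0.13, adjusted p = 0.00136). Flt3-ITD overlapped wild type by 1 library, and its change of -0.42 ± 0.13 (adjusted p = 0.0427) did not pass with a sex term (-0.39, adjusted p = 0.158). It also did not pass without Flt3-ITD library 1 (adjusted p = 0.0698), 2 (0.149) or 3 (0.107) or wild-type library 2 (0.113) or 3 (0.132). In Flt3-ITD with NHD13 the values were 43.2, 44.0, 39.5 and 39.6 CPM, all below wild type (-0.41 ± 0.13, adjusted p = 0.0225), a call lost without library 3 (0.0648) or 4 (0.0579) of that group or wild-type library 2 (0.069) or 3 (0.0753). NHD13 read 45.7, 43.8, 58.6 and 52.9 CPM and Runx1-heterozygous 59.7, 62.3, 62.5 and 43.1, and both overlapped wild type.

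Itgax (alpha-X, a marker of dendritic cells; chr7:128129547-128150657) was scarce and lower in 4 of the 5 mutant groups at P14. Wild type read 1.61, 4.65, 3.53 and 3.0 CPM, and Flt3-ITD with Runx1-heterozygous 0.330, 1.23, 0.448 and 0.645 (-2.30 ± 0.40, adjusted p = 8.57e-05). Flt3-ITD with NHD13 read 1.48, 0.946, 0.941 and 0.532 CPM (-1.74 ± 0.37, adjusted p = 0.00089), and both double groups lay below every wild-type library. Flt3-ITD (1.31, 1.95, 0.956 and 0.896 CPM) and NHD13 (1.28, 1.37, 1.71 and 1.68 CPM) overlapped wild type. Their changes of -1.32 ± 0.37 (adjusted p = 0.0207) and -1.08 ± 0.36 (adjusted p = 0.038) did not pass with a sex term (adjusted p = 0.0643 and 0.063). For Flt3-ITD the call was also lost without its library 3 (-1.21) or 4 (-1.18) or wild-type library 2 (-1.08) or 3 (-1.26). For NHD13 it was lost without any of its own 4 libraries (-1.0 to -1.15) or wild-type library 2 (-0.84), 3 (-1.02) or 4 (-1.09).

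Itgad (alpha-D), next to Itgax on chromosome 7, read 1.01, 1.64, 0.904 and 1.12 CPM in wild type and was called in no comparison with wild type. Flt3-ITD read 0.693, 2.11, 2.51 and 0.840 CPM and Flt3-ITD with Runx1-heterozygous 0.614, 0.920, 0.448 and 0.117, a difference of -1.53 ± 0.47 (adjusted p = 0.0468) between overlapping groups. It was lost with a sex term (-1.56, adjusted p = 0.0864), without Flt3-ITD library 2 (-1.32) or 3 (-1.19), and without library 1 (-1.62), 3 (-1.45) or 4 (-1.20) of the double group. Markers from 3 lists of myeloid cell types were read beside these beta-2 results. Of 8 macrophage and dendritic markers tested, 2 rose and 0 fell in Flt3-ITD (Adgre1, 3.02 ± 0.28, and Clec10a, 1.90 ± 0.22), and 2 rose and 2 fell in Flt3-ITD with Runx1-heterozygous. There Adgre1 (5.43 ± 0.30) and Clec10a (3.29 ± 0.23) were higher and C1qa (-1.86 ± 0.52) and C1qb (-2.47 ± 0.34) lower. The summed level of that list was 49.1 to 61.7 CPM in wild type, 85.3 to 107 in Flt3-ITD and 173 to 258 in Flt3-ITD with Runx1-heterozygous, where Siglech was at 0. Of 10 neutrophil and monocyte markers, 4 rose and 0 fell in Flt3-ITD (Mpo, Prtn3, Ctsg and Csf1r), 0 rose and 3 fell in NHD13, and 2 rose and 2 fell in Flt3-ITD with Runx1-heterozygous. That list summed to 820 to 1100 CPM in wild type, 1890 to 2410 in Flt3-ITD, 885 to 1160 in NHD13 and 1060 to 3620 in Flt3-ITD with Runx1-heterozygous, with none at 0. The 6 eosinophil markers summed to 218 to 873 CPM in wild type, 1.91 to 59.9 in Flt3-ITD, 3.42 to 6.07 in NHD13 and 3.69 to 11 in Flt3-ITD with Runx1-heterozygous. The part of these cells in the beta-2 values was not tested.

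**Figure D3:**
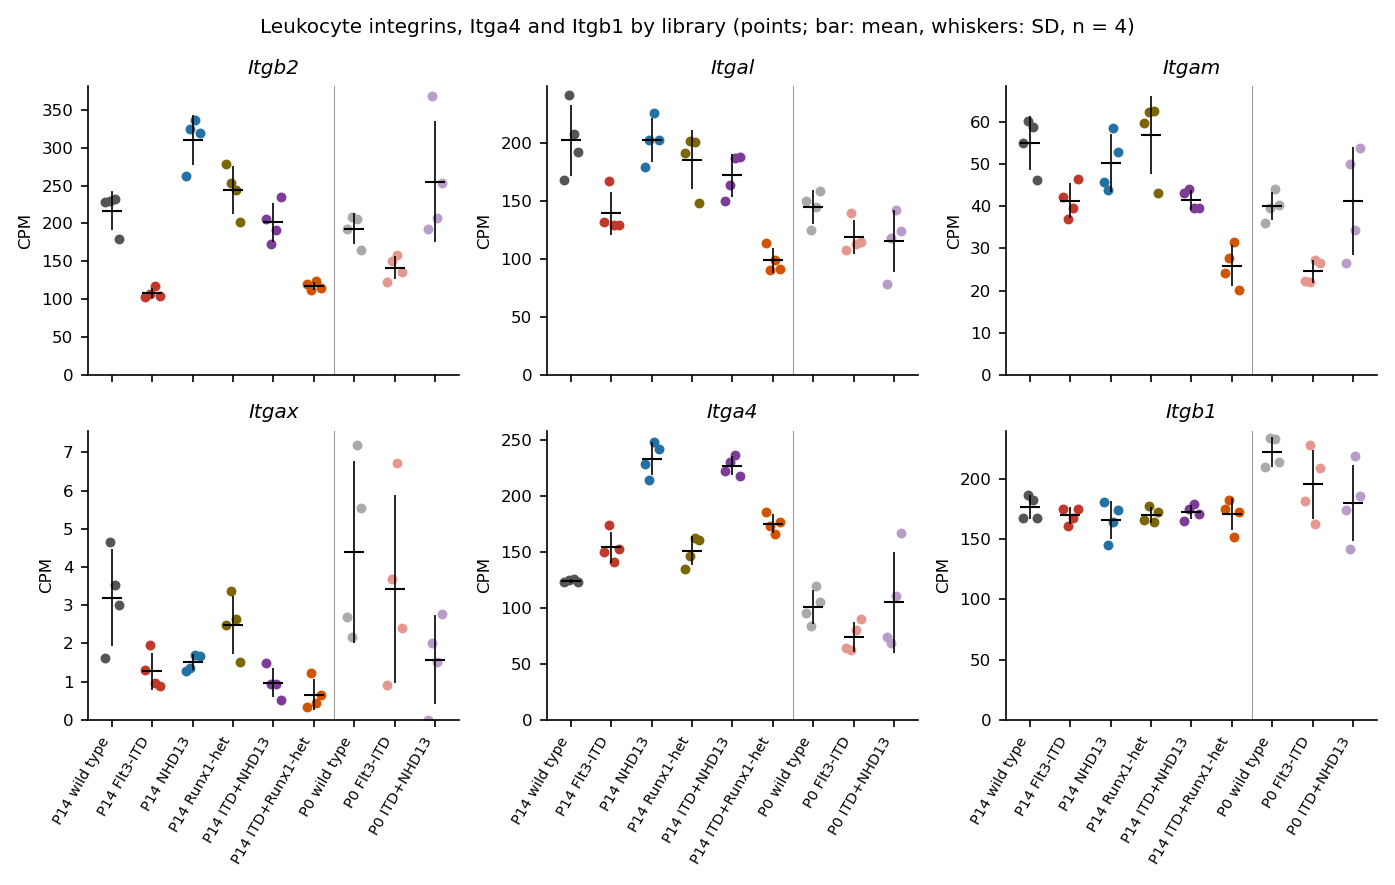
CPM of Itgb2, Itgal, Itgam, Itgax, Itga4 and Itgb1 in each library (points) of 9 groups, with the mean (bar) and SD (whiskers, n = 4); a line separates P14 from P0. Itgb2 and Itgal are low in both P14 groups with Flt3-ITD and no NHD13, Itga4 is highest in the P14 groups with NHD13, and Itgb1 stays between 145 and 187 CPM at P14.

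Itga4 (chr2:79255426-79333123), the alpha-4 subunit that binds VCAM-1 and fibronectin, rose in 4 of 5 P14 mutant groups. It read 123, 125, 126 and 123 CPM in wild type, 150, 174, 141 and 153 in Flt3-ITD, 229, 215, 249 and 242 in NHD13, and 223, 231, 237 and 218 in Flt3-ITD with NHD13. Flt3-ITD with Runx1-heterozygous read 186, 173, 166 and 177 CPM. Each of these groups lay above every wild-type library. The log2 fold change was 0.31 ± 0.07 for Flt3-ITD (adjusted p = 0.00518) and 0.91 ± 0.07 for NHD13 (adjusted p = 1.81e-10). For Flt3-ITD with NHD13 it was 0.87 ± 0.07 (adjusted p = 4.09e-10), and for the Runx1 double mutant 0.50 ± 0.07 (adjusted p = 8.46e-06). Runx1-heterozygous alone, at 135, 147, 163 and 161 CPM, also lay above wild type in every library, but did not pass (0.28, adjusted p = 0.0608).

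The beta partners of alpha-4 did not rise with it. Itgb1 (chr8:128685654-128733200), the most widely shared beta subunit, read 168, 187, 183 and 168 CPM in P14 wild type and between 145 and 187 CPM over all 24 P14 libraries. Its log2 fold change against wild type lay between -0.09 and -0.03 in the 5 P14 mutant groups and none passed. Itgb7 was -0.60 in Flt3-ITD (adjusted p = 0.206) and -0.48 in NHD13 (adjusted p = 0.281). Itga5 and Itga6, other partners of beta-1, were called once between them, for Itga6 in the Runx1 double mutant (0.53 ± 0.14, adjusted p = 0.0061). There Itga6 read 40, 40.7, 35.2 and 48.3 CPM, above the 25.6, 28.0, 26.3 and 34.1 of wild type in every library.

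Both subunits of the platelet fibrinogen receptor rose in NHD13. Itga2b (chr11:102453297-102470122) read 16.8, 13.3, 17.2 and 20.6 CPM in wild type and 100, 42.0, 120 and 103 in NHD13 (2.43 ± 0.25, adjusted p = 1.97e-07). In Flt3-ITD with NHD13 it read 31.4, 54.6, 41.7 and 61.2 CPM (1.48 ± 0.25, adjusted p = 9.07e-05). Every library of both groups lay above wild type, and NHD13 library 2 was the low one of its group. Itgb3 (chr11:104608000-104670476) also had library 2 as the low one of NHD13, at 4.98, 2.35, 5.68 and 4.25 CPM in wild type and 23.9, 6.28, 21.5 and 20.7 in NHD13 (2.06 ± 0.33, adjusted p = 3.54e-05). In Flt3-ITD with NHD13 it read 6.11, 11.9, 7.72 and 11 CPM, all above wild type (1.09 ± 0.32, adjusted p = 0.0153), a call lost without library 2 of that group (0.95, adjusted p = 0.0569) or wild-type library 2 (0.88, adjusted p = 0.0592). Flt3-ITD itself read 6.64, 7.36, 6.39 and 6.94 CPM for Itgb3, above wild type in every library without passing (0.66, adjusted p = 0.248). Its Itga2b values of 18.6, 18.1, 12.5 and 15.0 CPM overlapped wild type.

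Megakaryocyte markers were read beside these values. In NHD13, 6 of 8 tested were higher and 0 lower, the 10 of the list summed to 1090 to 1890 CPM against 846 to 1000 in wild type, and Gp6 was at 0 in every group but NHD13. In Flt3-ITD with NHD13, 5 were higher and 0 lower, and the sum was 790 to 1220 CPM. In Flt3-ITD, 0 were higher and 3 lower, and the sum was 617 to 643 CPM, below every wild-type library. Pf4, a platelet granule chemokine, read 656, 158, 595 and 742 CPM in NHD13 against 6.75 to 12.4 in wild type (5.74 ± 0.47, adjusted p = 3.4e-08), and library 2 was again the low one. The erythroid and megakaryocyte factor Gata1 was 2.53 ± 0.19 higher (adjusted p = 3.59e-11). Of the 9 erythroid markers, Gata1 among them, 5 were higher and 1 lower in NHD13. Their sum was lower there, at 2920 to 3760 CPM against 4080 to 4710 in wild type. Of 8 mast cell and basophil markers, 6 were higher, and the list summed to 638 to 2030 CPM in NHD13 against 25.4 to 47.8 in wild type. The part of these cells in the Itga2b and Itgb3 values was not tested.

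Itgb5 (chr16:33829665-33949338), which pairs with alpha-V as a vitronectin receptor, rose in the 2 P14 groups with Flt3-ITD and without NHD13. Wild type read 1.51, 2.25, 3.19 and 3.21 CPM, Flt3-ITD 6.61, 6.33, 7.05 and 7.84, and Flt3-ITD with Runx1-heterozygous 11.2, 9.69, 10.4 and 15.1. Neither group overlapped wild type, and the log2 fold changes were 1.46 ± 0.27 (adjusted p = 0.000536) and 2.19 ± 0.27 (adjusted p = 6.06e-07). The 0.74 between those 2 groups did not pass (adjusted p = 0.0747), although their libraries did not overlap. Flt3-ITD with NHD13 read 3.09, 4.22, 3.25 and 3.65 CPM and overlapped wild type (0.49, adjusted p = 0.217). NHD13 read 2.47, 1.41, 4.14 and 2.80 CPM and Runx1-heterozygous 2.41, 1.84, 4.09 and 2.97.

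The partner Itgav read 12.4, 12.3, 14.4 and 14.9 CPM in wild type and 18.4, 23.5, 15.2 and 19.5 in Flt3-ITD with Runx1-heterozygous. It was higher there in every library (0.50 ± 0.14, adjusted p = 0.00961), but without library 2 of that group the change was 0.39 (adjusted p = 0.0617). In the other P14 mutant groups Itgav lay between 11.7 and 19.6 CPM and was not called. Itgb6, an epithelial partner of alpha-V, was scarce at 1.01, 0.358, 0.947 and 1.39 CPM in P14 wild type, and lay between 0.0471 and 1.75 CPM in the P14 mutant libraries with no call.

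Itga9 was lower in 4 of the 5 mutant groups at P14, Itga2 in 3, and Itga8 in 2 and higher in 1. Itga9 (chr9:118606690-118901003), a receptor for tenascin and osteopontin, read 11.4, 6.70, 12.6 and 14.4 CPM in P14 wild type, 4.85, 2.92, 5.26 and 4.93 in Flt3-ITD, and 2.66, 4.15, 3.23 and 3.37 in NHD13. Flt3-ITD with NHD13 read 0.617, 0.172, 1.79 and 1.4 CPM and Flt3-ITD with Runx1-heterozygous 1.84, 1.66, 1.89 and 2.05. All 4 groups lay wholly below wild type, and the 2 double groups lay wholly below both single mutants shown. The log2 fold change was -1.33 ± 0.30 for Flt3-ITD (adjusted p = 0.00434) and -1.75 ± 0.31 for NHD13 (adjusted p = 0.000102). For Flt3-ITD with NHD13 it was -3.47 ± 0.34 (adjusted p = 9.49e-09), and for the Runx1 double mutant -2.60 ± 0.33 (adjusted p = 8.01e-07). Runx1-heterozygous alone read 14.3, 11.7, 14.6 and 12.6 CPM, overlapping wild type (0.24, adjusted p = 0.867).

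Itga2 (chr13:114833081-114932100), the collagen receptor subunit alpha-2, read 6.29, 5.27, 6.46 and 5.86 CPM in wild type and 3.07, 2.38, 2.87 and 3.36 in Flt3-ITD. It read 0.926, 1.81, 1.41 and 1.75 CPM in Flt3-ITD with NHD13 and 1.75, 1.35, 1.89 and 1.93 in Flt3-ITD with Runx1-heterozygous. These groups lay wholly below wild type, by -1.03 ± 0.24 (adjusted p = 0.00486), -2.00 ± 0.25 (adjusted p = 4.87e-07) and -1.78 ± 0.25 (adjusted p = 3.97e-06). NHD13 read 4.44, 2.09, 4.86 and 3.81 CPM, below wild type in every library without passing (-0.65, adjusted p = 0.0559), and Runx1-heterozygous read 6.62, 4.19, 6.56 and 6.46.

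Itga8 (chr2:12106632-12301922), a subunit known from mesenchymal tissue and kidney, moved in opposite directions in the single mutants. It read 0.604, 0.869, 1.16 and 0.628 CPM in wild type and 4.34, 8.08, 4.40 and 6.0 in NHD13, above wild type in every library (2.78 ± 0.40, adjusted p = 5.78e-06). Flt3-ITD held 2 counts over its 4 libraries against 65 in wild type, a ratio of 0.0294 of the depth-scaled counts (95% counting interval 0.00349 to 0.111, for counting error only). The fitted change was -4.73 ± 0.70 (adjusted p = 2.98e-05), a size that depends on how the fit treats so few counts. Flt3-ITD with Runx1-heterozygous read 0.0472, 0.123, 0 and 0.117 CPM (-3.50 ± 0.61, adjusted p = 9.32e-05). Flt3-ITD with NHD13 read 0.864, 0.387, 0.612 and 0.266 CPM, overlapping wild type (-0.68, adjusted p = 0.298).

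Cdh17 (chr4:11758147-11817895) was the cadherin with the widest range. It read 4.38, 12.1, 6.63 and 4.32 CPM in P14 wild type, 0.0365, 0.379, 0.179 and 0 in Flt3-ITD, and 0.236, 0.0613, 0 and 0.117 in Flt3-ITD with Runx1-heterozygous. NHD13 read 23.1, 29.0, 22.4 and 32.1 CPM. The first 2 mutant groups lay wholly below wild type (-5.58 ± 0.78, adjusted p = 6.39e-05, from 11 counts against 540, and -5.93 ± 0.82, adjusted p = 1.85e-05, from 8 counts) and NHD13 wholly above it (1.95 ± 0.49, adjusted p = 0.0077). Flt3-ITD with NHD13 read 3.03, 2.19, 2.87 and 4.10 CPM, below wild type in every library without passing (-1.17, adjusted p = 0.112). The Runx1-heterozygous libraries were spread over 11.1, 9.40, 1.16 and 2.5 CPM. Cdh17 is known in B lineage cells, and of 6 B cell markers tested, 1 was higher and 0 lower in Flt3-ITD, 0 changed in NHD13, and 5 were lower in Flt3-ITD with Runx1-heterozygous. Their summed level was 164 to 218 CPM in wild type, 167 to 509 in Flt3-ITD, 147 to 200 in NHD13 and 105 to 133 in Flt3-ITD with Runx1-heterozygous, where Pax5 was at 0. The part of B lineage cells in the Cdh17 values was not tested.

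Cdh2, Itga7 and Cdh13 rose in Flt3-ITD with Runx1-heterozygous, the last 2 with calls lost in some fits that left out a library. Cdh2 read 0.806, 0.307, 0.215 and 0.209 CPM in wild type and 2.41, 5.09, 1.49 and 2.93 in that group, above wild type in every library (2.91 ± 0.57, adjusted p = 0.000419). Itga7, the laminin receptor subunit of muscle, read 0.403, 0.205, 0.0861 and 0.0697 CPM in wild type and 0.519, 2.27, 0.299 and 0.996 there (2.33 ± 0.61, adjusted p = 0.00637). Cdh13 (T-cadherin) read 0.101, 0.153, 0.0861 and 0.0697 CPM in wild type and 0.519, 0.920, 0.0498 and 0.586 there (2.23 ± 0.72, adjusted p = 0.0257). For Itga7 and Cdh13 the groups overlapped, since library 3 was low. Without library 2 of the double group Itga7 was 1.59 (adjusted p = 0.0759) and Cdh13 1.82 (adjusted p = 0.111). The Cdh13 call was also lost without library 4 of that group (2.17) or wild-type library 3 (2.15) or 4 (2.13). The filter on low counts drew on the libraries of every group, so Cdh2, Itga7 and Cdh13 met it at least partly through the group where they are high. With no filter on low counts their calls against wild type were kept.

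Some stromal markers were highest and lowest in the same libraries. In Flt3-ITD with Runx1-heterozygous, Col3a1 read 5.76, 11.8, 1.45 and 6.15 CPM (2.06 ± 0.45, adjusted p = 0.00125) and Dcn 1.42, 2.88, 0.399 and 1.35 (1.58 ± 0.52, adjusted p = 0.0289), so library 2 was the highest and library 3 the lowest, as for Cdh2, Itga7, Cdh13 and Itgav. Col1a1, Col1a2 and Cxcl12 had the same highest and lowest library, while Pdgfrb, the most abundant of the list, was highest in library 3 (32.7, 36.6, 44.5 and 29.5 CPM). The library order of Lepr and Pdgfra, also on the list, is not given here, so the match holds only for the markers named. Of 6 stromal markers tested, 2 rose and 0 fell, and the list of 8 summed to 43.2 to 65.4 CPM against 41.3 to 48.3 in wild type, with none at 0. In Flt3-ITD that list, Pdgfrb included, summed to 56.2 to 71.6 CPM, and of its 6 tested markers 1 rose and 0 fell. Their median log2 fold change was -0.34 there, against 0.91 in the Runx1 double mutant. The higher sum in Flt3-ITD was thus not a rise of most of these markers. Cdh2 read 0.182, 0.162, 0.299 and 0.952 CPM in Flt3-ITD and was not called. Cdh5 read 0.614, 1.72, 0.249 and 1.17 CPM in the Runx1 double mutant (1.94, adjusted p = 0.0579), and of 7 endothelial markers 1 rose and 2 fell there. The part of stromal or endothelial cells in these values was not tested.

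**Figure D4:**
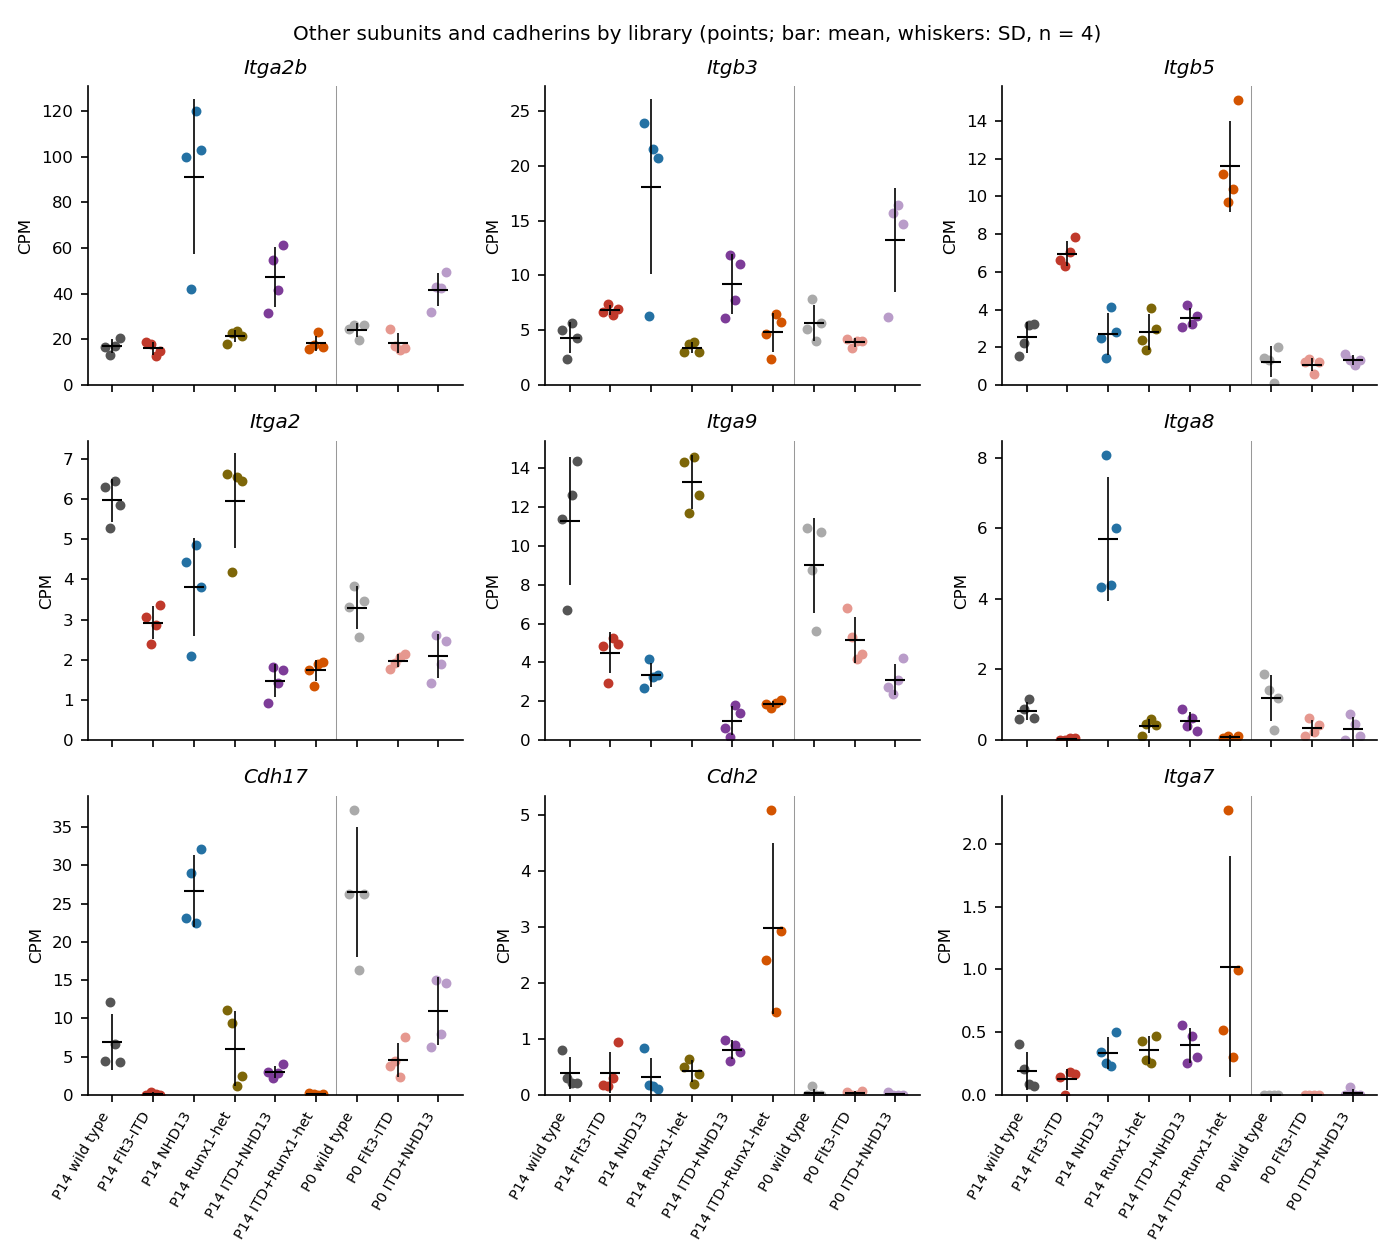
CPM of 9 members in each library (points) of 9 groups, with the mean (bar) and SD (whiskers, n = 4); a line separates P14 from P0. Itga2b, Itgb3, Itga8 and Cdh17 peak in NHD13 among the P14 groups, Itgb5 in the P14 groups with Flt3-ITD and no NHD13, and Cdh2 and Itga7 in Flt3-ITD with Runx1-heterozygous, where library 2 is the highest.

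As a share of the summed RPKM of the integrin alpha members, the beta-2 partners Itgal, Itgam, Itgax and Itgad together made up 63.6 ± 4.16% in P14 wild type (SD, n = 4). They made up 55.2 ± 1.53% in Flt3-ITD, 47.9 ± 3.81% in NHD13, 59.6 ± 4.35% in Runx1-heterozygous, 50.1 ± 1.71% where NHD13 was added to Flt3-ITD and 42.7 ± 2.27% in Flt3-ITD with Runx1-heterozygous. The share of Itga4 was 13.4 ± 1.03% in wild type, 20.4 ± 0.627% in Flt3-ITD, 19.3 ± 0.963% in NHD13 and 26.3 ± 1.39% in Flt3-ITD with Runx1-heterozygous. That of Itga2b was 4.69% in wild type and 18.9% in NHD13. Among beta members, Itgb2 made up 55.3 ± 4.57% in wild type, 40 ± 1.81% in Flt3-ITD and 65.4 ± 4.55% in NHD13. Cdh17 made up 57.6 ± 15.5% of the cadherin sum in wild type, 3.83% in Flt3-ITD and 80.3 ± 5.62% in NHD13. In these shares, which were not tested, a rise of one member lowers the others.

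**Figure D5:**
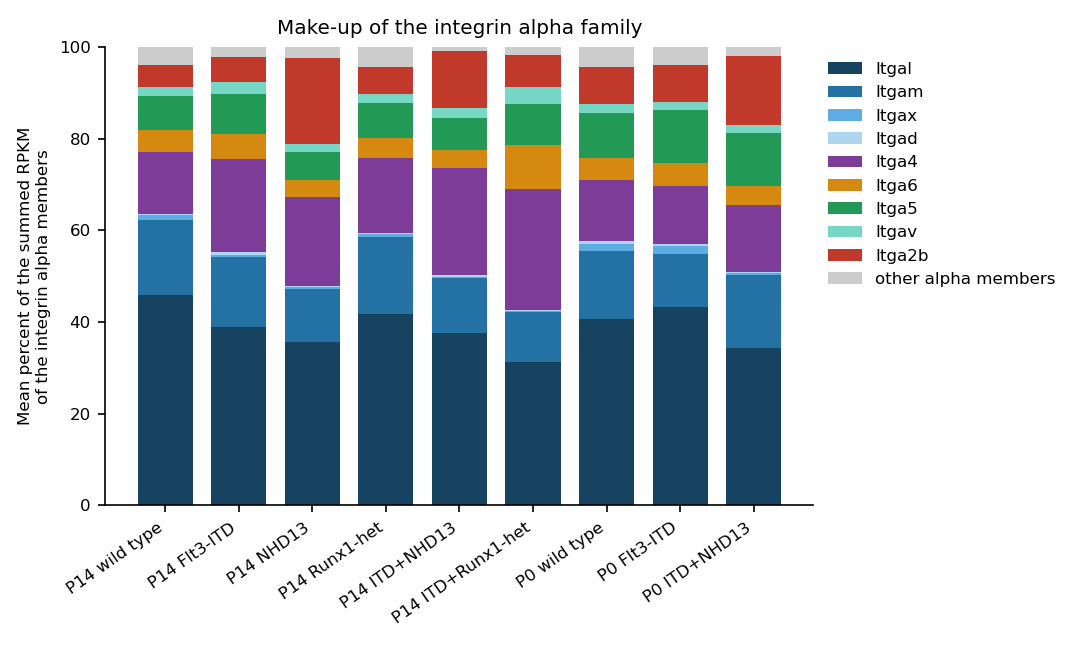
Stacked bars of the mean percent (n = 4) that alpha members take of the summed RPKM of the integrin alpha members in 9 groups. Itgal, Itgam, Itgax, Itgad, Itga4, Itga6, Itga5, Itgav and Itga2b are drawn singly, and the other alpha members are pooled in grey. The blue beta-2 partners fall from 63.6% in P14 wild type to 42.7% in Flt3-ITD with Runx1-heterozygous, and Itga2b reaches 18.9% in NHD13.

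Comparing the double mutants with the single ones asked what the second mutation adds. Flt3-ITD with NHD13 was lower than NHD13 in 6 of 28 members and higher in 0, beside 6.24% of all genes called (2.65% higher, 3.58% lower). The 6 were Itga8 (-3.46 ± 0.42), Cdh17 (-3.12 ± 0.52), Itga9 (-1.73 ± 0.35), Itga2 (-1.35 ± 0.25), Itga2b (-0.95 ± 0.24) and Itgb2 (-0.63 ± 0.10). Of these, Itga2b overlapped between the groups because of NHD13 library 2, and its call was lost without NHD13 library 3 (-0.79) or 4 (-0.89) or double-mutant library 1 (-0.80) or 3 (-0.90), and with no filter on low counts (-0.95, adjusted p = 0.054). Against Flt3-ITD the same double group differed in 8 members (5 higher, 3 lower), beside 13.5% of all genes (6.35% higher, 7.18% lower). Itga8 (4.05 ± 0.74), Cdh17 (4.41 ± 0.82), Itga2b (1.55 ± 0.25), Itgb2 (0.90 ± 0.10) and Itga4 (0.56 ± 0.07) were higher, and Itga9 (-2.15 ± 0.34), Itga2 (-0.97 ± 0.25) and Itgb5 (-0.96 ± 0.26) were lower. The double mutant thus lay between the single ones for Itga8, Cdh17, Itga2b and Itgb2, and below both for Itga2 and Itga9. No member was called as departing from additivity on the log2 scale by edgeR's interaction test (0 of 28, beside 0.535% of all genes, 0.257% higher and 0.278% lower), with 6 at an unadjusted p under 0.05 and 2 called by DESeq2. Among those 6 were Itgb3 (-1.63 ± 0.45, adjusted p = 0.119), Itgb5 (-1.07 ± 0.38, adjusted p = 0.322), Itgb2 (0.38 ± 0.14, adjusted p = 0.349) and Cdh17 (2.46 ± 1.02, adjusted p = 0.453).

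Flt3-ITD with Runx1-heterozygous differed from Flt3-ITD in 7 of 28 members (3 higher, 4 lower), beside 7.2% of all genes (3.31% higher, 3.9% lower). Itga7 (2.96 ± 0.65), Cdh2 (2.92 ± 0.57) and Itga6 (0.63 ± 0.14) were higher, and Itgad, Itga9 (-1.27 ± 0.33), Itgam and Itgal were lower. The Itga9 call was lost without library 2 of the double group (-1.22, adjusted p = 0.0512). The interaction called 1 member, Itgam (-0.72 ± 0.18, adjusted p = 0.038), beside 1.68% of all genes (0.646% higher, 1.04% lower). This call did not pass in 10 of 16 fits that left out 1 library (-0.61 to -0.74, adjusted p = 0.0505 to 0.116): Flt3-ITD library 1 or 4, Runx1-heterozygous library 1, 2 or 3, wild-type library 1, 3 or 4, and double-mutant library 1 or 4. Itga9 (-1.51, adjusted p = 0.0826), Itga6 (0.71, adjusted p = 0.0604) and Cdh2 (2.78, adjusted p = 0.112) had interactions that did not pass.

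At P0 the spread between libraries was wider (biological coefficient of variation 0.301, against 0.164 at P14) and fewer members were called. In Flt3-ITD only Cdh17 passed, at 3.78, 4.41, 2.31 and 7.57 CPM against 26.2, 37.2, 16.3 and 26.3 in wild type, with no overlap (-2.55 ± 0.38, adjusted p = 0.0417). It did not pass with a sex term (-2.35, adjusted p = 0.12), nor without Flt3-ITD library 1 (-2.47), 2 (-2.54) or 3 (-2.34) or wild-type library 1 (-2.56), 2 (-2.34), 3 (-2.73) or 4 (-2.55). Itgb2 read 123, 150, 158 and 136 CPM against 192, 209, 206 and 165 in wild type, and Itgam 22.3, 22.1, 27.2 and 26.5 against 36.1, 39.6, 44.1 and 40.3. Both lay below wild type in every library without passing (-0.44, adjusted p = 0.424, and -0.71, adjusted p = 0.291). Itga2 did too, at 1.77, 1.92, 2.06 and 2.15 CPM against 3.32, 3.83, 2.56 and 3.46 (-0.74, adjusted p = 0.39). Itgb5 stayed at 1.20, 1.35, 0.578 and 1.20 CPM against 1.45, 1.32, 0.0827 and 2.03 (-0.18, adjusted p = 0.942), and Itga4 at 64.6, 62.1, 80.6 and 90.6 against 96.0, 83.7, 120 and 105 (-0.44, adjusted p = 0.562).

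In Flt3-ITD with NHD13 at P0, Itga9 read 2.71, 2.37, 3.11 and 4.22 CPM against 10.9, 8.77, 5.63 and 10.7 in wild type, below it in every library (-1.53 ± 0.28, adjusted p = 0.00819). Itga2b read 31.9, 43.0, 42.3 and 49.6 CPM against 24.4, 26.4, 19.7 and 26.1, with no overlap (0.79 ± 0.19, adjusted p = 0.0474). Itgb3 read 6.16, 15.7, 16.4 and 14.7 CPM against 5.06, 7.88, 4.05 and 5.64 (1.22 ± 0.30, adjusted p = 0.0454), and library 1 overlapped wild type. Itgb6 read 0.903, 0.182, 1.04 and 0.460 CPM against 2.83, 2.76, 1.49 and 4.0, below it in every library (-2.07 ± 0.49, adjusted p = 0.0408). A further 4 P0 columns carry the name of this double genotype with the numbers 5 to 8, match no label and were not used. The calls of Itga2b, Itgb3 and Itgb6 lay close to the threshold and were lost in most fits that left out 1 library. With the replicate number as a block in the edgeR fit, none of them passed (adjusted p = 0.0572, 0.0581 and 0.0677). Those of Itga2b (0.75, adjusted p = 0.0844) and Itgb3 (1.19, adjusted p = 0.0525) were also lost with no filter on low counts. Itga2b was lost without library 2 (0.77), 3 (0.78) or 4 (0.69) of the double group or any wild-type library (0.70 to 0.83). Itgb3 was lost without library 2 (1.13), 3 (1.10) or 4 (1.17) of that group or wild-type library 1 (1.17), 3 (1.09) or 4 (1.21), and Itgb6 without library 1 (-2.24), 2 (-1.78) or 4 (-1.92) of it or wild-type library 1 (-2.06), 2 (-2.07) or 4 (-1.85).

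Against Flt3-ITD at P0, 3 members were higher in the double group and 0 lower, beside 2.88% of all genes (1.74% higher, 1.14% lower). Itga2b was 1.19 ± 0.20 higher (adjusted p = 0.00282), Itgb3 1.76 ± 0.30 (adjusted p = 0.00414) and Itgb2 0.85 ± 0.18 (adjusted p = 0.0189). Itgb2 read 193, 368, 207 and 253 CPM, above every Flt3-ITD library, and its call was lost with a sex term (0.77, adjusted p = 0.055) and without Flt3-ITD library 1 (0.78) or 4 (0.83). Of 7 megakaryocyte markers tested at P0, 1 was higher than wild type, Treml1 (1.45 ± 0.30, adjusted p = 0.015), and Pf4 read 7.96, 11.6, 10.8 and 89.5 CPM. The mast cell and basophil list summed to 593 to 9230 CPM over the P0 libraries.

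The ages were compared only as effects against their own wild type. Each age has its own count table, so age and any other difference between the tables cannot be told apart. For Flt3-ITD edgeR called 0 of 30 members tested (0.194% of all genes, 0.1% higher and 0.0934% lower), with 9 at an unadjusted p under 0.05 and 0 called by DESeq2. For Flt3-ITD with NHD13 it called 3, beside 3.91% of all genes (1.37% higher, 2.54% lower). The effect was more negative at P14 than at P0 for Itga9 by -1.93 ± 0.46 (adjusted p = 0.011) and for Itga2 by -1.32 ± 0.34 (adjusted p = 0.0196), and more positive for Itga4 by 0.83 ± 0.23 (adjusted p = 0.0334). At P0 the double group read 74.3, 68.7, 111 and 167 CPM for Itga4 and 1.43, 2.62, 1.89 and 2.47 for Itga2. The Itga2 call was lost without P14 double-mutant library 1 (-1.16, adjusted p = 0.0546) and with no filter on low counts (-1.31, adjusted p = 0.0606). The Itga4 call was lost with a sex term (0.78, adjusted p = 0.0563), without P14 double-mutant library 2 (0.83) or 3 (0.81), P14 wild-type library 3 (0.84) or 4 (0.83), P0 double-mutant library 1 (0.69) or 2 (0.67), and P0 wild-type library 3 (0.74) or 4 (0.81).

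Genes that act with integrins and cadherins were read from 4 lists. Of 35 integrin activators and adaptors tested at P14, 0 rose and 8 fell in Flt3-ITD, 8 rose and 2 fell in NHD13, 4 rose and 8 fell in Flt3-ITD with NHD13, and 2 rose and 12 fell in Flt3-ITD with Runx1-heterozygous. Over all genes, the share called in either direction in these 4 comparisons was 8.6%, 15.9%, 22.4% and 22.7%, and the counts of this list and of the other 3 are to be read beside it. Nedd9, a scaffold of focal adhesions, fell in all 4 of these groups (-0.90 ± 0.17, -0.63 ± 0.17, -1.44 ± 0.17 and -1.62 ± 0.17). Rapgef3, an exchange factor that activates Rap1, fell in Flt3-ITD (-0.77 ± 0.23) and Flt3-ITD with Runx1-heterozygous (-1.87 ± 0.25) and rose in NHD13 (1.15 ± 0.21). Vcl (vinculin, an actin linker) rose in NHD13 (0.89 ± 0.13) and in Flt3-ITD with NHD13 (0.71 ± 0.13). The kinase Syk fell by 0.97 ± 0.11 in Flt3-ITD with Runx1-heterozygous.

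Of 21 integrin ligands tested at P14, 1 rose and 2 fell in Flt3-ITD, 5 rose and 4 fell in NHD13, 5 rose and 5 fell in Flt3-ITD with NHD13, and 9 rose and 3 fell in Flt3-ITD with Runx1-heterozygous. Icam1, the ligand of LFA-1 and Mac-1, fell in all 4, by 0.46 ± 0.11, 0.61 ± 0.11, 0.71 ± 0.11 and 1.05 ± 0.11 on the log2 scale. Vcam1, the ligand of alpha-4 beta-1, read 18.1, 13.1, 9.99 and 16.6 CPM in wild type and 2.27, 2.02, 1.45 and 2.70 in the Runx1 double mutant (-2.78 ± 0.41, adjusted p = 4.11e-05). Ccn3, a matricellular ligand, read 0.101, 0, 0.0431 and 0.0697 CPM in wild type, 17.7, 8.33, 17.4 and 13.8 in Flt3-ITD, and 47.3, 47.7, 42.7 and 46.8 in Flt3-ITD with Runx1-heterozygous (fitted changes 7.94 ± 0.57 and 9.63 ± 0.55). In NHD13 the platelet proteins Thbs1 (4.05 ± 0.55) and Vwf (3.24 ± 0.33) rose, beside Itga2b and Itgb3. Spp1 (osteopontin), a ligand of alpha-9 and alpha-V integrins, rose by 2.22 ± 0.21 in Flt3-ITD with Runx1-heterozygous, where Itga9 fell and Itgav rose.

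Of 13 cadherin partners tested at P14, 0 rose and 2 fell in Flt3-ITD, 1 rose and 2 fell in NHD13, 1 rose and 5 fell in Flt3-ITD with NHD13, and 2 rose and 2 fell in Flt3-ITD with Runx1-heterozygous. Ctnna1 (alpha-catenin, which ties cadherin complexes to actin) fell in Flt3-ITD (-0.52 ± 0.09) and Flt3-ITD with Runx1-heterozygous (-0.81 ± 0.09), and Nectin1 fell in NHD13 (-2.60 ± 0.41) and Flt3-ITD with NHD13 (-6.08 ± 0.60). Of 20 other adhesion receptors, 1 rose and 4 fell in Flt3-ITD, 3 rose and 7 fell in NHD13, 2 rose and 11 fell in Flt3-ITD with NHD13, and 2 rose and 7 fell in Flt3-ITD with Runx1-heterozygous. Esam, a junctional receptor of stem cells and endothelium, fell in NHD13 (-3.17 ± 0.28) and Flt3-ITD with NHD13 (-4.06 ± 0.30), and Selp (P-selectin) fell in Flt3-ITD (-1.0 ± 0.22) and Flt3-ITD with Runx1-heterozygous (-2.01 ± 0.23). The protocadherin Pcdh7 fell in Flt3-ITD (-0.89 ± 0.18) and rose in NHD13 (2.38 ± 0.17), Runx1-heterozygous (1.52 ± 0.17), and the double mutants with NHD13 (1.96 ± 0.17) and Runx1-heterozygous (0.50 ± 0.17). In Runx1-heterozygous alone 1, 0, 0 and 2 genes of the activators, ligands, cadherin partners and other receptors rose and 0, 0, 0 and 3 fell.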

How the data were processed

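The authors deposited raw read counts per Ensembl gene, 1 table per age. The submitters' processing notes name STAR, Subread and featureCounts 1.4.5 as tools; the build, annotation and strand setting are not given in the sources used here. RNA was taken with a Qiagen micro kit and amplified with a Clontech SMART kit, per the labels' protocols. Symbols and coordinates come from GENCODE M21 (GRCm38), which matched 40340 IDs of each table; promoter windows come from RefSeq. Counts without strand cannot be told from those of overlapping antisense genes. In the P0 table, 276 repeated entries were dropped.

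Of 40 labelled samples, 36 in 9 groups had a column. P0 NHD13 is not analysed here, so the P0 fit has 12 libraries in place of the 16 planned, and 4 P0 columns were not used: they are named for Flt3-ITD with NHD13 with the numbers 5 to 8 and match no label. Which samples they hold is not known. Each age was fitted with edgeR 4.0.16 in R 4.3.3 (TMM, filterByExpr, robust quasi-likelihood test, 1 mean per group), over 14394 genes at P14 and 14359 at P0; both ages together (14984 genes) gave the age differences. CPM divides counts by the TMM-adjusted library size, and RPKM also by merged exon length. On counts simulated for Flt3-ITD against wild type, changes were planted only in genes with a mean of at least 4 CPM. There edgeR recovered 89.6% of 2-fold changes at P14 (14165 genes) and 56.7% at P0 (14096 genes). For 1.5-fold changes it recovered 82.1% at P14 and 1.49% at P0. These shares do not describe members under 4 CPM.

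The 33 members and all lists were chosen with earlier results of these data known. Members were given by library where they passed against wild type with an absolute log2 fold change of at least 1, with Itgb1, Itgav and Itgad as partner subunits; Itga4, Itga6, Itgae, Cdh15 and Cdh5 were added after their values were seen. Other genes were named as the 3 highest and 3 lowest passing per list, or as markers. Alternatives were RLE size factors, no filter, DESeq2 1.42.0, a replicate block, a sex term (libraries with more Y-linked than Xist counts against the rest) and leaving out each library.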

Additional observations from a re-analysis of the deposited data

Results flagged for a closer look

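In 130 sets of 4 libraries (18 members by group, with at least 40 counts), 7 had 1 library far from the other 3 by Dixon's test, and chance flags about 1 in 20. The low ones were Itga2 at 4.19 CPM and Itgam at 43.1 in Runx1-heterozygous, Itgad at 0.556 in Flt3-ITD with NHD13, and Itgb2 at 179 in wild type, all at P14, and Itgb3 at 6.16 in Flt3-ITD with NHD13 at P0. The high ones were Itgal at 167 CPM in Flt3-ITD and Itgav at 19.6 in NHD13, both at P14. In Runx1-heterozygous the low value of Itga2 came from library 2 and that of Itgam from library 4.

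The effect of Flt3-ITD with NHD13 differed between the ages for Itga2 (-1.32), Itga4 (0.83) and Itga9 (-1.93), each by edgeR's test of the difference, and the effect of Flt3-ITD differed with the Runx1 genotype for Itgam (-0.72). Of 16 fits that left out 1 library, the Itgam call was lost in 10, that of Itga4 in 8, Itga2 in 1 and Itga9 in 0. The Itga4 call was also lost with a sex term and that of Itga2 with no filter on low counts. The cause of these differences was not tested.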

How the results depend on the processing

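The main fits called 73 pairs of a member and a comparison. RLE size factors and DESeq2 kept all 73 calls, no filter on low counts kept 69, a sex term 66, and leaving out a library kept 530 of 616 fitted values past the threshold, with 0 reversed under any of these. Of the 73, 53 passed in every fit that left out 1 library. With the replicate number as a block, 70 of 73 were kept, and the 3 that did not pass were Itgb3 (1.20, adjusted p = 0.0581), Itgb6 (-2.01, adjusted p = 0.0677) and Itga2b (0.80, adjusted p = 0.0572) for Flt3-ITD with NHD13 at P0. The labels do not say that a number marks a shared source. Same-numbered libraries correlated at -0.145 to 0.373 over 60 pairs at P14 (median 0.00451, 8 over 0.1; other numbers -0.00255) and -0.183 to 0.348 over 12 pairs at P0 (median 0.102, 6 over 0.1; other numbers -0.0205). The fits without the block were kept because not every pair was over 0.1. That rule cannot tell whether a number marks a shared source, above all at P0, where 6 of 12 pairs were over 0.1.

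The count of called members moved by over 1.5 times in these cases. DESeq2 called 1 for Runx1-heterozygous, 2 and 3 for the interactions of Flt3-ITD with NHD13 and with Runx1-heterozygous, and 7 and 9 at P0 for Flt3-ITD with NHD13 against wild type and against Flt3-ITD. With the replicate block these were 2 for the Runx1 interaction, 6 for Flt3-ITD with NHD13 against Flt3-ITD at P0 and 1 for the age difference of Flt3-ITD. No filter gave 2 for Flt3-ITD with NHD13 at P0 and a sex term 0 for Flt3-ITD at P0. The cause was not tested.

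Leaving out 1 library gave 8 to 10 called members for Flt3-ITD at P14, 7 to 8 for NHD13, 0 to 1 for Runx1-heterozygous, 5 to 8 for Flt3-ITD with NHD13 and 13 to 16 for Flt3-ITD with Runx1-heterozygous. Against the single mutants it gave 5 to 7 (NHD13), 8 to 10 (Flt3-ITD) and 5 to 8 (Runx1 double against Flt3-ITD), and 0 to 2 for each interaction. At P0 it gave 0 to 1, 1 to 3 and 2 to 5, and for the age differences 0 to 1 and 2 to 3.

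Members under about 1 CPM rest on few counts. At P0 the simulation recovered 1.49% of 1.5-fold and 56.7% of 2-fold changes, so 2-fold changes were often missed as well.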

Other observations

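At P0, Itgae (alpha-E, which pairs with beta-7) and Cdh15 separated Flt3-ITD with NHD13 from Flt3-ITD in every library without passing. Both were picked after their values were seen, and the share of all genes that separate likewise was not computed. Itgae read 0.637, 0.365, 0.849 and 0.460 CPM against 1.67, 2.30, 4.40 and 2.59 (-2.21, adjusted p = 0.0743). Cdh15 read 5.58, 11.9, 6.10 and 5.14 CPM against 2.19, 4.87, 1.70 and 2.88 (1.30, adjusted p = 0.0918), and also lay above P0 wild type in every library. Cdh5 was at 0, 0.304, 0 and 0 CPM in the double group and 0.600, 1.11, 0.361 and 0.401 in Flt3-ITD (-3.25, adjusted p = 0.133).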
